A study of Mus musculus with 20 samples.

Results

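The genes described here are 10 genes of the germ line: Ddx4, Mael, Dazl, Sycp1, Sycp3, Ldhc, Tnp1, Tnp2, Prm1 and Prm2. Every probe set annotated to exactly 1 of these symbols was taken, which gave 15 probe sets of the 45037 tested, and 10 genes of the 18193 that had a probe set with a single symbol. Ldhc, Dazl and Tnp1 have 2 probe sets each, Prm1 has 3 and each of the other 6 genes has 1. No filter on low values was applied, so all 15 are accounted for. Expression was measured on a mouse Affymetrix array in epithelial cells of the thymic medulla, sorted from 1 thymus per array. Mice that were wild-type (WT) for Aire were set against Aire knockouts (KO) on the B6, BALB and NOD backgrounds. Each genotype had 3 mice in B6, 4 in BALB and 3 in NOD, which makes 6 groups and 20 arrays. All were males aged 3 to 4.5 weeks with no further treatment named. In every group cells were sorted as lacking CD45, carrying G8.8 and high MHC class II, and having intermediate Ly51. The labels do not say which Aire allele the KO mice carry. The comparison asks what Aire does to these genes in each background and how individual mice differ.

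Aire is a transcriptional regulator that switches on genes of peripheral organs in medullary thymic epithelium, so that developing T cells meet the products of those genes and self-reactive clones are deleted or diverted. Germ cells are a special case of such tissue-restricted expression, since the meiotic and haploid stages of the testis arise after T-cell tolerance is first set and lie behind a barrier of Sertoli cells. In other cell types many germline genes are kept silent by DNA methylation of CpG-rich promoters and by repressor complexes that contain E2f6 and Mga.

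Values are log2 of the deposited intensity, and an effect is the KO mean minus the WT mean on that scale, so an effect of -1 is a halving of the intensity. Array medians lay between 86.3 and 90.9 intensity units, the median of all log2 values was 6.48, and the lowest 5% of them lay below 3.77. No detection calls were used, so a value near that floor cannot be told from background. The cells carried the markers of medullary epithelium, whose 19 measured genes of 21 averaged 10.6 to 11.1 on each array. Of these 19 genes 5 were higher and 2 lower in KO. The 11 genes of dendritic cells and macrophages averaged 7.60 to 9.58, with Ptprc, which encodes CD45, at 9.49 and Itgam at 4.52. The 6 measured B cell genes averaged 7.06 to 8.10. These levels do not show that the sort was free of such cells. The Aire probe set itself read 9.31 to 11.45 in WT mice and 10.53 to 12.04 in KO mice, and was 0.74 ± 0.14 (SE) higher in KO (limma adjusted p = 0.00104, n = 10 and 10). The labels do not say whether its target is among the deleted sequence, so this reading does not check the genotypes. On 3 B6 arrays (WT 2, KO 2 and KO 3) the log2 difference between the 3' and 5' Gapdh control probe sets was 1.68 to 1.90, against 2.15 to 3.76 on the other 17. Each array is 1 mouse, so the p-values rest on the spread between mice.

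In the contrast averaged over the 3 strains, 7 of the 15 probe sets were lower in KO mice and 0 were higher by limma at an adjusted p under 0.05. Over all probe sets 10.1% were lower and 10.5% higher. Unadjusted p was under 0.05 for 11 of the 15, of which 1 (Tnp2) was higher in KO. The share of all probe sets at that unadjusted limit is not given here, so this count is no result about the members. The median effect of the 15 was -0.34, against 0.06 over all probe sets tested. Ddx4 and both Ldhc probe sets fell by more than 2-fold, a size that 2.14% of all probe sets passed. Mael, 1 Dazl probe set and 2 Prm1 probe sets passed with effects between -0.44 and -0.37. Sycp1, Sycp3, Tnp1, Tnp2 and Prm2 had no probe set that passed. These were bulk samples, so fewer cells expressing a gene and less RNA per cell cannot be told apart.

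Ddx4 encodes the RNA helicase of the germ granule, known as Vasa. Its log2 values were 5.89, 6.35 and 6.90 in B6 WT mice and 3.93, 3.41 and 3.64 in B6 KO mice. In BALB they were 6.56, 5.64, 5.13 and 4.39 in WT and 3.57, 3.64, 3.87 and 3.38 in KO. In NOD they were 7.38, 7.32 and 6.88 in WT and 3.76, 4.003 and 4.03 in KO. Every KO mouse lay below every WT mouse of its strain, and the 10 KO values sat near the floor of the array whatever the strain. Ddx4 fell by 2.60 ± 0.20 (SE) on the log2 scale in the averaged contrast, a 6.06-fold lower intensity (limma adjusted p = 3.39e-08). Within strains it was 6.59-fold lower in B6 KO mice, 3.52-fold lower in BALB KO mice and 9.57-fold lower in NOD KO mice, with limma adjusted p-values of 7.25e-05, 0.00122 and 1.74e-05.

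Ldhc encodes the lactate dehydrogenase subunit of spermatocytes and sperm. Its probe set 1415846_a_at read 7.21, 7.25 and 7.73 in B6 WT mice and 4.16, 3.98 and 3.88 in B6 KO mice. The BALB values were 6.87, 6.35, 7.43 and 6.71 in WT and 3.68, 3.60, 3.86 and 3.89 in KO. The NOD values were 6.03, 6.41 and 6.54 in WT and 4.04, 3.91 and 3.82 in KO. The lowest of the 10 WT mice thus stood well above the highest of the 10 KO mice. The averaged effect was -2.96 ± 0.12 (SE), a 7.76-fold lower intensity in KO (limma adjusted p = 5.30e-12), with 10.4-fold in B6, 8.45-fold in BALB and 5.30-fold in NOD.

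Probe set 1415847_at of Ldhc gave the same direction over a higher KO level. It read 7.32, 8.28 and 8.20 in B6 WT mice against 5.58, 5.85 and 5.65 in B6 KO mice. In BALB it read 8.13, 8.05, 7.60 and 7.21 in WT against 5.68, 6.04, 5.75 and 5.64 in KO. In NOD it read 6.79, 6.99 and 7.03 in WT against 5.999, 5.63 and 5.71 in KO. Again no KO mouse reached a WT mouse, and the gap was narrowest in NOD. This probe set fell by 1.79 ± 0.13 (SE) on the log2 scale, 3.45-fold (limma adjusted p = 1.42e-08), and by 2.24 in B6, 1.97 in BALB and 1.16 in NOD. Ddx4 and these Ldhc probe sets are the 3 of 15 without overlap between genotypes in each of the 3 strains, a pattern found for 3.17% of all probe sets.

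**Figure D1:**
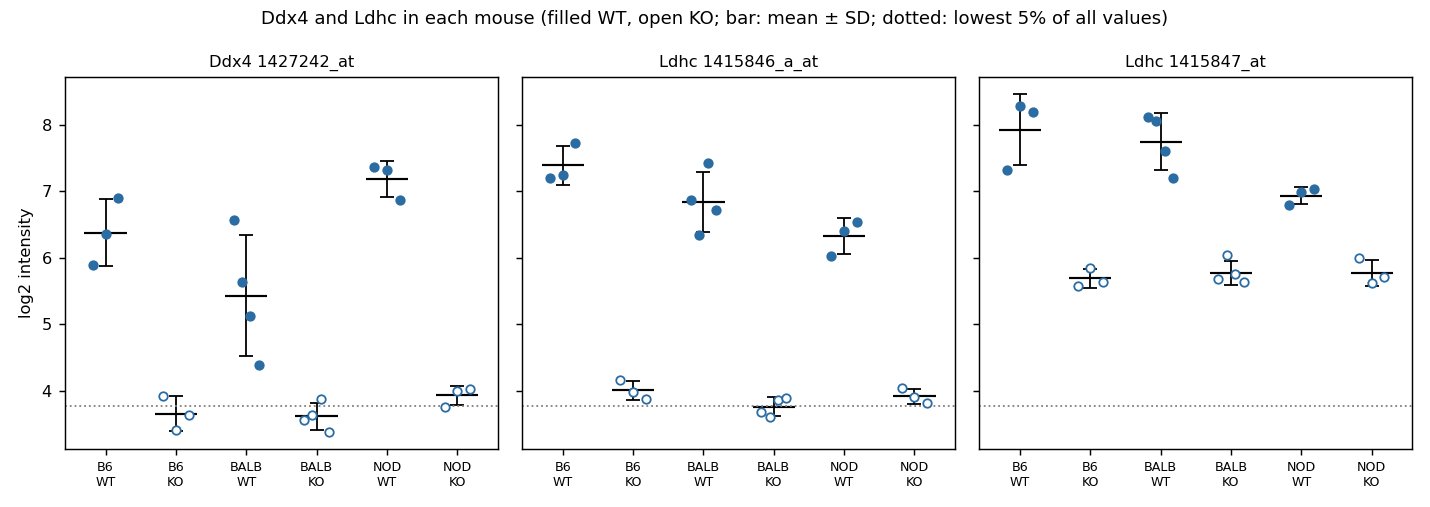
Log2 intensity of Ddx4 and of the 2 Ldhc probe sets (vertical axis) in each mouse of the 6 groups (horizontal axis). Filled points are WT mice, open points KO mice, bars the group mean ± SD, and the dotted line at 3.77 marks the lowest 5% of all values on the arrays. All 10 KO mice lie below the WT mice of their strain in each panel, Ddx4 is highest in NOD WT mice and both Ldhc probe sets are lowest in NOD WT mice.

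These large falls kept their calls under the alternatives tried. The averaged effect passed in 30 of 30 alternatives for Ddx4 and for Ldhc probe set 1415846_a_at, and in 31 of 31 for Ldhc probe set 1415847_at. Adding 50 intensity units before taking log2, which compresses low values, moved the effects to -1.11, -1.37 and -1.20. The size of a fold therefore rests on how the floor is treated, and the direction does not.

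The other members with a role in germ granules and in germ cell commitment had smaller effects than Ddx4. Mael, an RNA-binding protein of the piRNA pathway that silences transposons, read 4.34, 3.83 and 4.10 in B6 WT mice and 3.57, 3.63 and 3.57 in B6 KO mice. In BALB the WT values were 4.30, 4.45, 4.18 and 3.40, and the KO values 3.56, 3.60, 3.68 and 3.52. NOD WT mice read 3.91, 3.82 and 3.97 and NOD KO mice 3.45, 3.66 and 3.57. Genotypes did not overlap in B6 or NOD, and in BALB the WT 4 mouse, at 3.40, lay below all 4 KO mice. Mael fell by 0.44 ± 0.11 (SE) in the averaged contrast (limma adjusted p = 0.00538), and no single strain passed in the fit of all 20 arrays. Its values lay near the floor of the array in both genotypes, which leaves little room for a fall.

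Dazl encodes an RNA-binding protein that germ cells need to enter meiosis. Its probe set 1419542_at fell by 0.41 ± 0.11 (SE) in the averaged contrast (limma adjusted p = 0.0136). In B6 it read 6.16, 6.79 and 6.13 in WT mice and 5.98, 5.45 and 6.02 in KO mice. BALB WT mice read 6.56, 6.07, 5.77 and 6.11 and BALB KO mice 6.24, 6.02, 5.91 and 5.97. NOD WT mice read 6.38, 6.10 and 6.38 and NOD KO mice 5.82, 5.51 and 5.73. Genotypes overlapped in BALB, where the effect was -0.09, and not in B6 or NOD, where it was -0.54 and -0.60. Without the 3 B6 arrays that stand apart in Gapdh the averaged effect was -0.29 and did not pass (limma adjusted p = 0.0977). The second probe set, 1449502_at, gave -0.18 (limma adjusted p = 0.131), so the probe sets of Dazl differed in their call.

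Sycp1 and Sycp3 are structural proteins of the synaptonemal complex, which holds paired chromosomes together in meiosis. Sycp1 lay between 3.85 and 4.28 in all 20 mice, with an averaged effect of -0.11 (limma adjusted p = 0.136). Sycp3 had an averaged effect of -0.33 ± 0.12 (SE) that missed the threshold (limma adjusted p = 0.0595) and passed in 10 of 30 alternatives, among them those without B6 WT 1 (0.0303), BALB WT 3 (0.0416), NOD WT 1 (0.0392) or NOD KO 3 (0.00806). Its BALB WT mice read 4.43, 3.94, 3.67 and 3.91 and its BALB KO mice 3.64, 3.43, 3.48 and 3.54, so that all 4 KO mice lay below the WT mice. In NOD, KO 3 read 4.37, above the WT values of 3.74, 4.11 and 4.20. Genotypes of Sycp3 thus overlapped in NOD, and also in B6.

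Tnp1 and Tnp2 encode transition proteins, which replace histones in elongating spermatids and are in turn replaced by the protamines Prm1 and Prm2. Probe set 1415924_at of Tnp1 lay between 3.997 and 4.45 in every mouse, with an averaged effect of -0.08 (limma adjusted p = 0.384). Probe set 1438632_x_at of Tnp1 ranged from 3.34 to 5.0, with -0.34 (limma adjusted p = 0.187). Tnp2 ranged from 4.11 to 4.73, with an averaged effect of 0.12 (limma adjusted p = 0.144), and passed as higher in KO without BALB WT 2 (0.15, limma adjusted p = 0.0476). Prm2 ranged from 5.39 to 6.29 and had an averaged effect of 0.17 (limma adjusted p = 0.174). With array weights Prm2 passed as higher in KO, at 0.23 in the averaged contrast (limma adjusted p = 0.0196) and 0.47 in NOD (0.00728). None of these 4 probe sets separated the genotypes in the way Ddx4 and Ldhc did, apart from Tnp1 1438632_x_at in NOD, where the KO mice lay below the WT mice. For Tnp2 the 3 B6 KO mice lay above the 3 B6 WT mice.

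The 3 Prm1 probe sets differed from each other. Probe set 1415955_x_at lay between 7.01 and 7.58 in all 20 mice and did not separate the genotypes (limma adjusted p = 0.985). Probe set 1437054_x_at fell by 0.37 ± 0.07 (SE) in the averaged contrast (limma adjusted p = 0.00137) and by 0.56 in NOD (limma adjusted p = 0.0187). Probe set 1439379_x_at fell by 0.37 ± 0.08 (SE; limma adjusted p = 0.00222) and by 0.55 in NOD (limma adjusted p = 0.0331). In NOD the former read 3.71, 3.41 and 3.96 in WT mice and 3.27, 2.98 and 3.16 in KO mice. All values of both these probe sets, 2.98 to 3.96, lay at the bottom of the scale. The NOD calls were lost in 5 of 31 and 7 of 31 alternatives, among them the offset of 50 and a fit of the NOD arrays alone. The former was lost without NOD WT 1, WT 3 or KO 2 (limma adjusted p = 0.0512, 0.136 and 0.118), the latter without any of these (0.0521, 0.215 and 0.105) or without KO 1 (0.118) or KO 3 (0.0729).

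**Figure D2:**
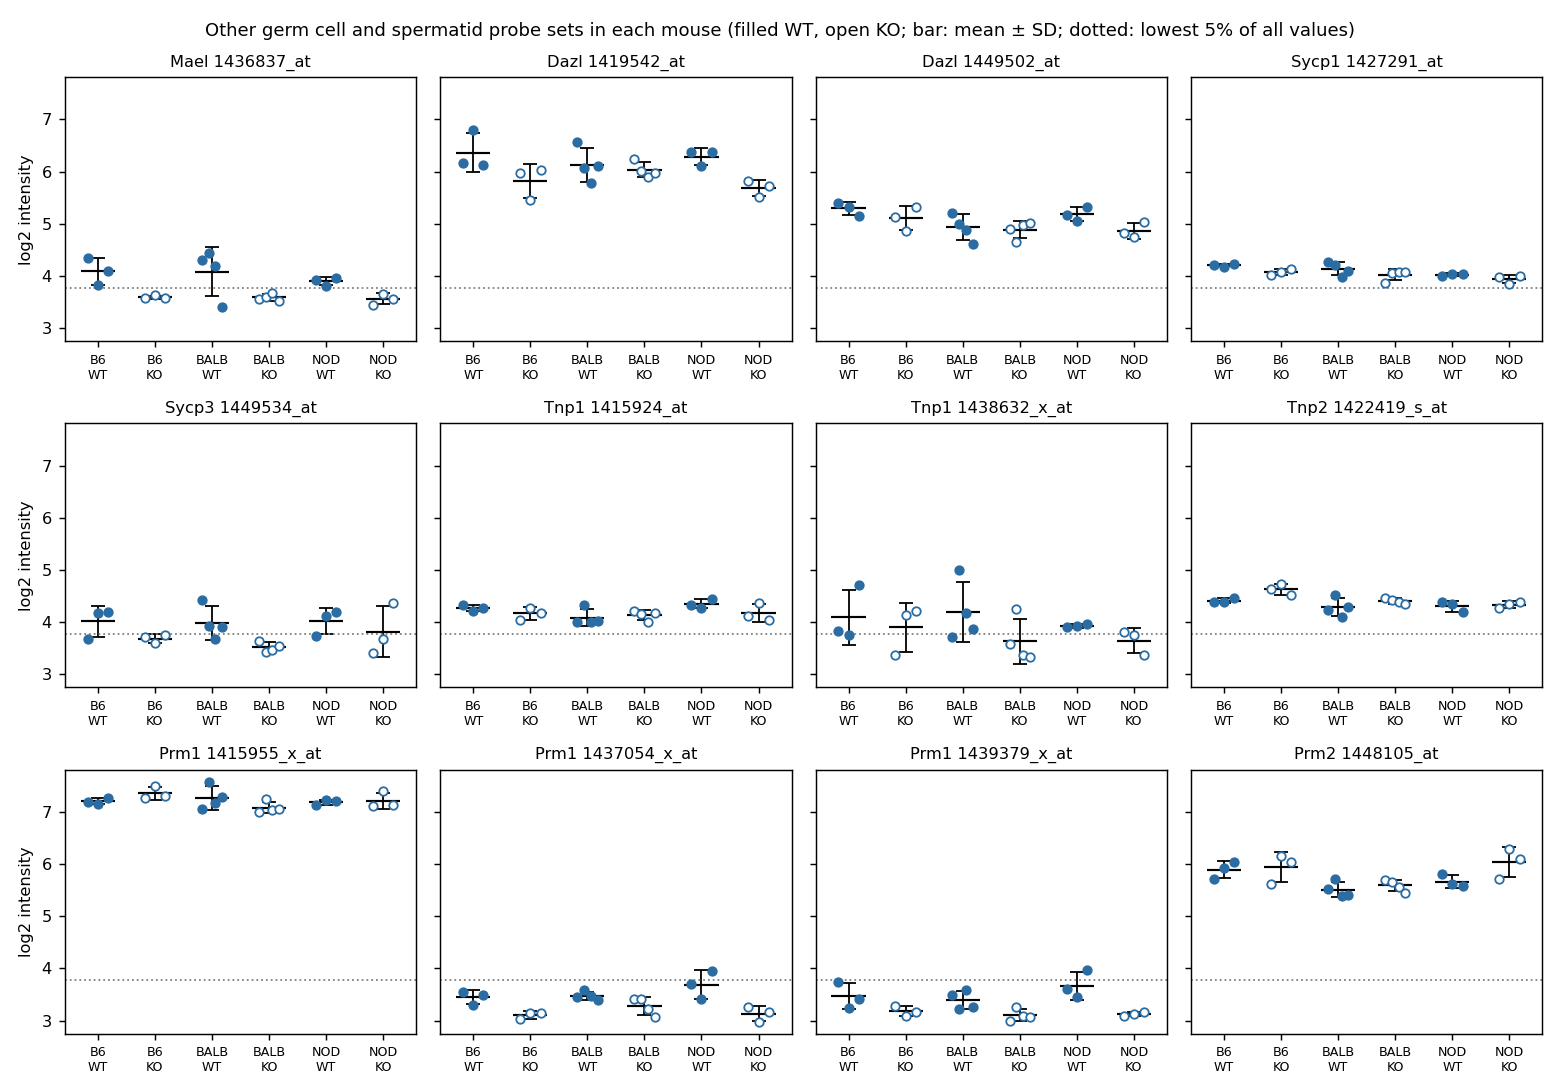
Log2 intensity (vertical axis) of the other member probe sets in each mouse of the 6 groups (horizontal axis), drawn as filled points for WT, open points for KO and bars for the mean ± SD, with the dotted line at 3.77. Mael, Sycp1, Sycp3, Tnp1 and the low Prm1 probe sets sit within about 1 log2 unit of the dotted line in nearly all mice, and genotypes overlap in most panels.

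Taken strain by strain, 3 of 15 probe sets were lower in KO in B6, 3 in BALB and 5 in NOD, against 5.54%, 4.26% and 2.81% of all probe sets lower and 3.08%, 2.57% and 1.42% higher. The 3 in B6 and in BALB were Ddx4 and both Ldhc probe sets, and NOD added the 2 low Prm1 probe sets. No member was higher in KO by limma in any strain, and 1 NOD probe set, Prm2, was higher at an unadjusted p under 0.05. Mice with the same number deviated together in all 4 BALB and all 3 NOD pairs. In both strains the mice of a number also share a run of sample codes, so a pair and a shared run cannot be told apart. With the replicate number as a block, 9 of 15 probe sets passed in the averaged contrast (37.0% of all probe sets), 6 in BALB (17.3%) and 6 in NOD (11.4%). This block paired the B6 mice by number as well, where r was 0.78 for mice 1, 0.72 for mice 2 and -0.13 for mice 3. Its averaged calls therefore rest partly on a B6 pair, that of mice 3, that the check did not bear out. The block added Sycp3 (limma adjusted p = 0.00582) and Tnp1 1438632_x_at (0.0129) to the averaged calls. In BALB it added Mael (limma adjusted p = 0.0252), Sycp3 (0.0213) and Tnp1 1438632_x_at (0.0205), and in NOD Dazl 1419542_at (0.0484). With array weights 10 of 15 passed in the averaged contrast (37.1% of all probe sets) and 7 in NOD (15.1%), Prm2 being the member called higher in both.

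**Figure D3:**
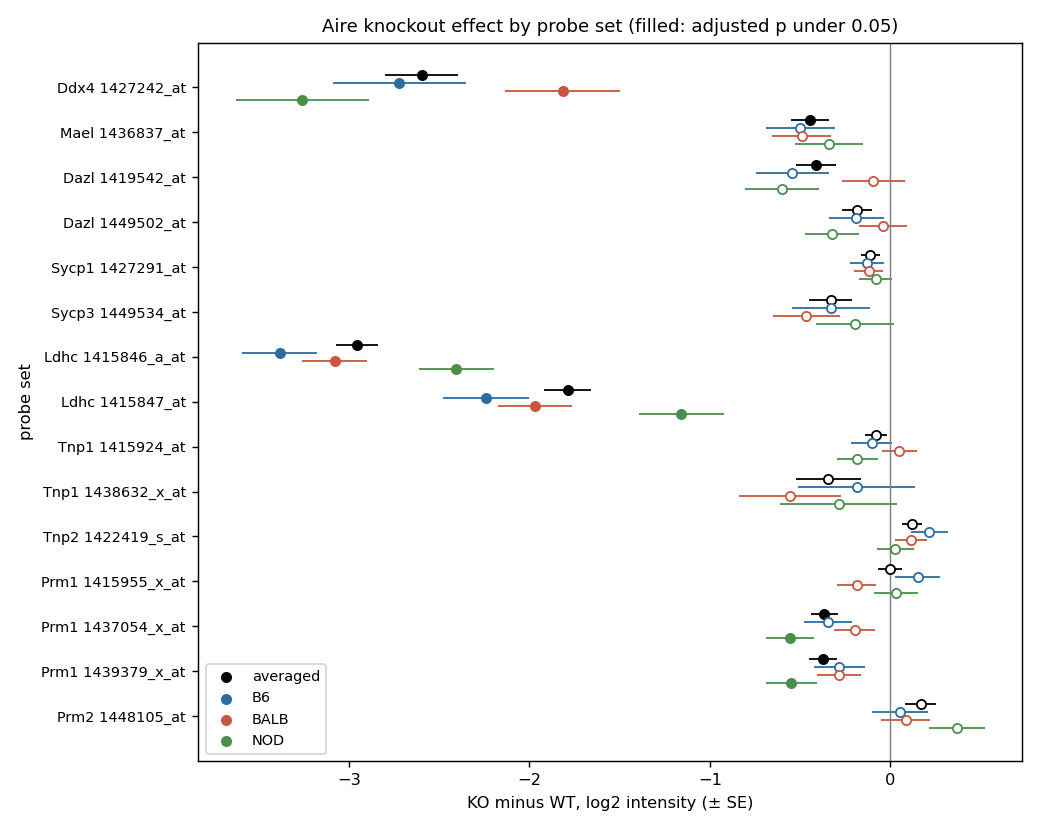
KO minus WT in log2 intensity (horizontal axis) for the 15 member probe sets (vertical axis), averaged over strains and within each strain, with bars for the SE of the limma fit and filled points where the adjusted p was under 0.05. Ddx4 and both Ldhc probe sets lie between -1.16 and -3.38 in every strain, while the other 12 lie between -0.60 and 0.37.

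Among WT mice the levels of Ddx4 and Ldhc followed different strain orders. A limma F test over the WT groups passed for 3 of 15 probe sets, Ddx4 (adjusted p = 0.00653), Ldhc 1415846_a_at (0.00697) and Ldhc 1415847_at (0.0168), against 11.3% of all probe sets. Ddx4 averaged 7.19 ± 0.27 (SD, n = 3) in NOD, 6.38 ± 0.51 (SD, n = 3) in B6 and 5.43 ± 0.91 (SD, n = 4) in BALB. Ldhc 1415846_a_at averaged 7.39 ± 0.29 (SD, n = 3) in B6, 6.84 ± 0.45 (SD, n = 4) in BALB and 6.33 ± 0.27 (SD, n = 3) in NOD. Ldhc 1415847_at averaged 7.93 ± 0.53 (SD, n = 3) in B6, 7.75 ± 0.43 (SD, n = 4) in BALB and 6.94 ± 0.13 (SD, n = 3) in NOD. NOD was thus the highest WT group for Ddx4 and the lowest for both Ldhc probe sets. Neighbours in these orders overlapped, except that the NOD values of Ldhc 1415847_at lay below all BALB values.

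Pairwise, Ddx4 was 3.38-fold higher in NOD than in BALB WT mice (1.76 ± 0.34 (SE) in log2, limma adjusted p = 0.00395), a contrast in which 6.14% of all probe sets differed. NOD and B6 (0.81, limma adjusted p = 0.232) and BALB and B6 (-0.95, limma adjusted p = 0.123) did not pass for Ddx4. Ldhc 1415846_a_at was 2.09-fold lower in NOD than in B6 WT mice (limma adjusted p = 0.00357; 7.04% of all probe sets differed between these groups). Ldhc 1415847_at was 1.99-fold lower in NOD than in B6 (limma adjusted p = 0.0144) and 0.81 lower in log2 than in BALB (limma adjusted p = 0.0365). Neither Ldhc probe set passed between BALB and B6 WT mice (-0.55 and -0.18), where 6.10% of all probe sets did.

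Apart from that of B6 WT 1, which belongs to no run, the sample codes fall into 4 runs. They are here called A to D, and the labels do not give their meaning. In the fit with the run as a block B6 WT 1 was a level of its own, so it did not inform the blocked differences. Only run B holds WT mice of more than 1 strain. In that run the NOD WT 1 mouse read 7.38 for Ddx4 and the BALB WT 3 and WT 4 mice 5.13 and 4.39. For Ldhc 1415846_a_at the same NOD mouse read 6.03, below the 7.43 and 6.71 of the BALB mice. With the run as a block, the Ddx4 difference between NOD and BALB was 2.10 (limma adjusted p = 0.00435). The NOD to B6 difference of Ldhc was then -1.47 and -1.10 for its 2 probe sets (limma adjusted p = 0.0856 and 0.127), and the NOD to BALB difference of 1415847_at was -0.56 (0.112). No B6 WT mouse shares a run with a NOD mouse. The blocked NOD to B6 difference is thus linked only through B6 KO 1 in run B, and run and strain cannot be told apart there. For Ldhc 1415847_at the NOD to B6 call was also lost without the 3 B6 arrays that stand apart (-0.82, limma adjusted p = 0.106) and without B6 WT 2 (0.0843), B6 WT 3 (0.0734) or NOD WT 1 (0.0543). Its NOD to BALB call was lost without BALB WT 1 (0.105), BALB WT 2 (0.103), NOD WT 1 (0.127), NOD WT 2 (0.0938) or NOD WT 3 (0.0801).

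Whether the Aire effect itself differed between strains was tested with a limma F test over the 3 KO minus WT differences. None of the 15 probe sets passed, against 0.435% of all probe sets, and 3 had an unadjusted p under 0.05. These 3 were Ddx4 (unadjusted p = 0.0247, adjusted p = 0.727), Ldhc 1415846_a_at (0.0117 and 0.524) and Ldhc 1415847_at (0.0124 and 0.535). With array weights both Ldhc probe sets passed (limma adjusted p = 0.0190 and 0.0299), and 1415847_at also passed with the run as a block (0.0325) or with the Gapdh difference as a covariate (0.0266). With the replicate number as a block neither passed (limma adjusted p = 0.113 and 0.0614). The share of all probe sets passing under these settings is not given here, so these calls are no result about the members. Among KO mice 0 of 15 differed between strains by limma, where 17.9% of all probe sets did, and 2 had an unadjusted p under 0.05. For both F tests the share of all probe sets with an unadjusted p under 0.05 is not given here. The unadjusted counts are thus no result about the members. The KO levels of Ddx4 averaged 3.66 in B6, 3.62 in BALB and 3.93 in NOD.

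Within the runs that hold both genotypes of a strain, every difference of the large members was negative. For Ddx4 they were -3.10 in B6 (run C), -2.50 and -1.13 in BALB (runs A and B) and -3.61 and -3.08 in NOD (runs B and D). For Ldhc 1415846_a_at they were -3.55, -2.97, -3.19, -1.99 and -2.61 in the same order. For Ldhc 1415847_at they were -2.49, -2.23, -1.71, -0.79 and -1.34. The smallest Ddx4 difference was that of BALB mice in run B, and the smallest Ldhc differences were those of the single NOD pair in run B.

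Individual WT mice of a strain differed in Ddx4 by more than most genes did. The SD of Ddx4 in log2 was 0.91 in BALB WT mice, where the median SD of all probe sets was 0.20, 0.51 in B6 WT mice (median 0.18) and 0.27 in NOD WT mice (median 0.13). In KO mice its SD was 0.26 in B6, 0.20 in BALB and 0.15 in NOD. The 2 BALB WT mice of run A read 6.56 and 5.64 and the 2 of run B 5.13 and 4.39, so the spread lies partly between runs. BALB WT 4, the lowest for Ddx4, was also the lowest of the 4 BALB WT mice for Mael (3.40), Ldhc 1415847_at (7.21) and Dazl 1449502_at (4.62), and it had the lowest Aire reading of all 20 arrays (9.31). For Ldhc 1415846_a_at (6.71), Dazl 1419542_at (6.11), Sycp1 (4.10) and Sycp3 (3.91) the same mouse lay between the others. Without this mouse Mael passed within BALB (limma adjusted p = 3.17e-04) and within B6 (0.00937), whose own values did not change. The part of the Aire level in these values was not tested.

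Across the 20 arrays, the level of Ddx4 correlated with that of Ldhc 1415846_a_at at r = 0.83 and with that of 1415847_at at r = 0.78, and the Ldhc probe sets correlated at r = 0.94. All share the split into WT and KO mice. After subtracting group means, r was 0.03 between Ddx4 and Ldhc 1415846_a_at, 0.64 between Ddx4 and 1415847_at, and 0.02 between the 2 Ldhc probe sets. The genes with the levels most like Ddx4 were Cryaa (r = 0.96), an eye lens crystallin, Ms4a2 (0.95), a mast cell IgE receptor chain, and Nxf3 (0.95). For Ldhc 1415846_a_at they were Sftpc (0.98), a lung surfactant protein, C1qtnf3 (0.97) and Gip (0.97), a gut hormone, and for 1415847_at Pyy (0.98), another gut hormone, Gip (0.98) and Gsdmc2 (0.97). By deviations from group means, the most alike were Fgb (0.85), Gabrr1 (0.85) and Csn3 (0.83) for Ddx4. They were Plac1 (0.87), Prl8a9 (0.83) and Macrod1 (0.82) for Ldhc 1415846_a_at, and Pyy (0.91), Matn2 (0.87) and Gm19723 (0.85) for 1415847_at. These are the highest correlations among all other genes with a single-symbol probe set, over the same 20 mice, and are given as a description.

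The measured genes next to the members in the RefSeq gene order were read in the same contrast. Beside Ddx4, Il31ra read -0.19 (limma adjusted p = 0.0633) and Slc38a9 -0.27 (0.130). Beside Ldhc, its paralogue Ldha read -0.13 (limma adjusted p = 0.268) and Tsg101 -0.16 (0.199). The falls of Ddx4 and Ldhc were therefore not matched by their measured neighbours. Tnp2, Prm3, Prm2 and Prm1 lie next to each other, flanked by Socs1, which read 0.26 higher in KO (limma adjusted p = 0.0356), and Rmi2, at 0.11. The largest neighbour effects were at Sycp3, where Gnptab fell by 0.78 (limma adjusted p = 1.63e-04) and Chpt1 by 0.48 (0.0129), and at Mael, where Ildr2 fell by 0.50 (2.95e-04) and Gpa33 read 0.12. Beside Sycp1, Tshb fell by 0.36 (limma adjusted p = 0.0491) and Sike1 read 0.02. Beside Tnp1, Igfbp5 and 6030407O03Rik each rose by 0.27 (limma adjusted p = 0.0240 and 0.0262). Beside Dazl, AY702103 read 0.09 and Plcl2 0.20, and neither passed.

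The promoters of the members fall into CpG-rich and CpG-poor ones, shown here because CpG methylation and E2f6 complexes are the known silencers of germline genes outside the germ line. In RefSeq windows of build GRCm38.p6 from 250 bases before to 50 after the start site, Ddx4 held 38 CpG pairs, Dazl 28, Mael 24, Sycp1 21 and Sycp3 15. Ldhc has 2 windows in the table, which held 9 and 3, and Tnp1 held 6, Tnp2 4, Prm2 3 and Prm1 1, while the median of 32851 windows was 7. Of the genes that fell at least 2-fold, Ddx4 thus had the most CpG pairs of all members and Ldhc fewer than the meiotic genes that did not fall that far. CACGTG, the E-box letters read by Mga with Max, occurred in the windows of 4 members, Ddx4, Mael, Sycp1 and Sycp3, and in 7.15% of all windows. TCCCGC, a core of E2F sites searched on both strands, occurred in the same 4 genes and in 6562 of the 32851 windows. TGACGT, the core letters of a cAMP response element searched on both strands, occurred in Dazl and in the Ldhc window with 9 CpG pairs, not in the other Ldhc window, and in 7.51% of all windows. The stretches of 100 bases that hold CACGTG or, for Ldhc, TGACGT in capitals are as follows.

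Ddx4, chr13:112652311-112652410, minus strand: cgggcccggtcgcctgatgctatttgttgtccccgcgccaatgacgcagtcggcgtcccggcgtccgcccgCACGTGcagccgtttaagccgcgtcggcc
Mael, chr1:166238895-166238994, minus strand: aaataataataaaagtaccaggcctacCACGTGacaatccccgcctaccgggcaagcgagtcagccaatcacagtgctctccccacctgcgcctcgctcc
Sycp1, chr3:102936101-102936200, minus strand: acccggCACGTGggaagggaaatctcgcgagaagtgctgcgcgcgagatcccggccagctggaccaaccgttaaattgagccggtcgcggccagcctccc
Sycp3, chr10:88459487-88459586, plus strand: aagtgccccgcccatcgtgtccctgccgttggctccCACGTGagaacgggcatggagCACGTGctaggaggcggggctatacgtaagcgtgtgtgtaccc
Ldhc, chr7:46861163-46861262, plus strand: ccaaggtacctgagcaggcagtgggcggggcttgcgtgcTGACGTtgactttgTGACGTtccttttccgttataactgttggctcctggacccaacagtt

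Each stretch is the 100 bases before the start site, except that of Mael, which runs from -250 to -151, counted from the start site. The E-box begins at -29 in Ddx4, -223 in Mael, -94 in Sycp1, and -64 and -43 in Sycp3. The 2 TGACGT copies of Ldhc begin at -61 and -47. Ddx4 and Sycp1 both carry the E-box near the start in a CpG-rich window. Ddx4 fell 6.06-fold in KO. Sycp1 read -0.11, but it lay near the floor of the array in both genotypes, which leaves little room for a fall. The part of these letters in the effects was not tested. A match in these windows is a description of the letters and no evidence of binding.

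Other genes of the germ line were taken as lists, with the probe set of highest mean per gene. Over all 18193 genes 16.6% were lower and 9.70% higher in KO in the averaged contrast, with a median of 0.01. Of 17 measured genes of germ granules and the piRNA pathway, 4 fell, 2 rose and the median was 0.0049. Asz1 was counted as not passing, at 0.0049, although its other probe set, of lower mean, read -2.05. Piwil2, a piRNA-binding protein, fell by 1.57 ± 0.11 (SE; limma adjusted p = 5.77e-09), and in it all 10 KO mice lay below the WT mice of their strain. Gtsf1 fell by 1.08, although its other probe set read -0.04, and Tdrd9 and Piwil1 fell by 0.57 and 0.50. Of 22 meiotic genes 6 fell and 2 rose, with a median of -0.03. Sycp2, the partner of Sycp3 on the chromosome axis, fell by 1.12 ± 0.10 (SE; limma adjusted p = 1.11e-07), and Msh4, a recombination protein, by 0.53. Spo11, which makes the meiotic DNA breaks, rose by 0.68 (limma adjusted p = 7.42e-04) and Mei4, needed for those breaks, by 0.49. The Mei4 effect was 1.21 in NOD, 0.26 in B6 and -0.0085 in BALB.

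Of 27 genes of spermatid and sperm structure, 7 fell, 1 rose and the median was 0.07. Tekt4, Tekt1 and Tekt2, tektins of the flagellum and of other cilia, fell by 0.95, 0.84 and 0.72. The Tekt2 effect was -0.90 in B6 and -1.22 in BALB, but -0.05 in NOD. Oaz3, an antizyme of spermatids, fell by 0.78, while its other probe sets read -0.88, 0.10, 0.10, 0.16 and 0.27. Of 14 genes of sperm energy metabolism 3 fell and 1 rose, with a median of 0.01. Slc2a3, a glucose transporter also found in other tissues, fell by 2.08 ± 0.12 (SE; limma adjusted p = 7.82e-10), with other probe sets at -1.96, 0.17 and 0.23. Eno4, an enolase of sperm, fell by 1.72 and Ldhb, the heart-type lactate dehydrogenase subunit, by 1.11, while Gapdhs, the glycolytic enzyme of sperm, rose by 0.20 (limma adjusted p = 0.0479).

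Of 14 measured genes of Sertoli and Leydig cells, the somatic cells of the testis, 6 fell, 0 rose and 8 did not pass, with a median of -0.03. Cldn11, the claudin of the blood-testis barrier, fell by 0.75, the steroidogenic enzyme Cyp11a1 by 0.68 (other probe sets -1.57 and 0.11), the homeobox gene Rhox5 by 0.51 and Star, which carries cholesterol into mitochondria, by 0.24 (other probe sets -1.44 and -0.61). Of 15 genes of the E2f6, Mga and DNA methylation machinery, 2 fell and 2 rose, with a median of 0.00010. Dnmt3l, the germ cell cofactor of DNA methylation, rose by 1.79 ± 0.17 (SE; limma adjusted p = 3.59e-07), and Cbx3 by 0.20. Dnmt3b fell by 0.48 and E2f6 by 0.33, with the other E2f6 probe set at 0.04.

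**Figure D4:**
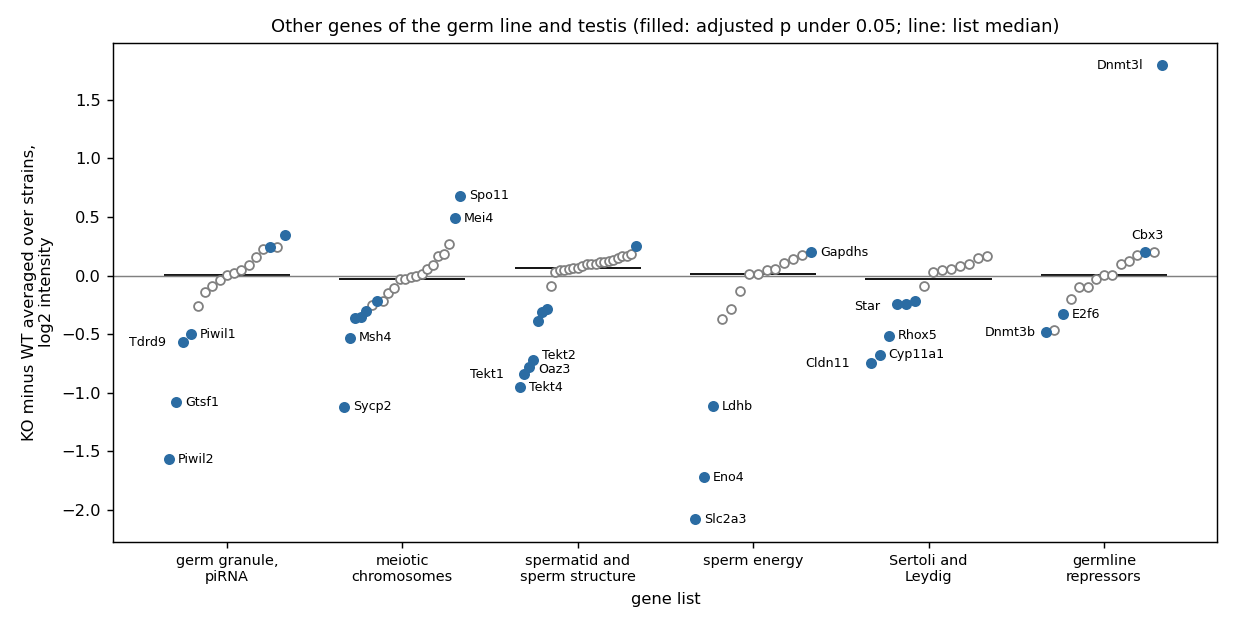
KO minus WT averaged over strains in log2 intensity (vertical axis) for the genes of 6 lists (horizontal axis). Filled points passed a limma adjusted p of 0.05, open points did not, horizontal lines are the list medians, and names mark up to 4 genes per list with the largest effect. List medians lie between -0.03 and 0.07, with single genes such as Slc2a3 at -2.08, Piwil2 at -1.57 and Dnmt3l at 1.79 far from them.

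The gate on CD45 is meant to leave out thymocytes, dendritic cells, macrophages and B cells, and that on G8.8 to leave out fibroblasts and endothelium, and markers of all of these were counted in the averaged contrast. Beside the 16.6% of all genes that were lower and 9.70% that were higher, 2 of 10 thymocyte genes fell (Cd3g by 0.92 and Dntt by 0.67, with other Dntt probe sets at -0.10 and -0.36). Of 11 dendritic cell and macrophage genes 1 fell (Adgre1 by 1.38) and 2 rose (Fcer1g by 0.53, Zbtb46 by 0.27), and of 6 B cell genes 2 rose (Cr2 by 1.44, Blk by 0.25). Of 8 endothelial genes Cd34 fell by 2.11 and Pecam1 rose by 0.21. Of 9 cortical epithelial genes Enpep and Ctsl fell by 1.93 and 0.78 (other Ctsl probe set 0.17) and Tbata and Ly75 rose by 0.61 and 0.52. Of 8 fibroblast genes 4 fell and 3 rose. Dcn rose by 1.53 (other probe set 0.31), while Col3a1 fell by 1.12 (other probe set -0.14), Col1a2 by 0.81 (others -0.77 and 0.11) and Col1a1 by 0.77 (other -0.08). Among the medullary epithelial genes Cd80 rose by 0.85 (other probe sets 0.27 to 0.48), Aire by 0.74 and Relb by 0.63, and Krt5 fell by 0.69.

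The summed intensity of the markers separated the genotypes for some lists. Such a sum is weighted to its brightest gene, which was Dcn for fibroblasts (mean log2 10.03) and Cr2 for B cells (9.61). Both of these rose in KO, whereas 4 of the 8 fibroblast genes fell, so a sum need not speak for its whole list. The fibroblast sum was higher in KO without overlap in B6, at 1757 to 1949 in WT and 2507 to 3577 in KO, and in BALB, at 1619 to 1875 and 3189 to 3663, and overlapped in NOD, at 1798 to 2094 and 1916 to 2196. The B cell sum did not overlap in NOD, at 1790 to 1978 in WT and 2479 to 2851 in KO, and overlapped in B6, at 1340 to 1773 and 1755 to 2624, and in BALB, at 1071 to 2304 and 1922 to 3074. The endothelial sum was lower in KO without overlap in NOD, at 911 to 1069 in WT and 746 to 841 in KO, and overlapped in B6 and BALB. The thymocyte sum was lower in KO without overlap in B6, at 1382 to 1586 in WT and 1196 to 1359 in KO, and overlapped in BALB, at 1326 to 1617 and 1141 to 1413, and in NOD, at 1403 to 3245 and 1083 to 2141. The dendritic cell and macrophage sum overlapped in B6 (6485 to 9975 in WT, 4693 to 9047 in KO), in BALB (5085 to 8711 and 4468 to 10367) and in NOD (5025 to 19828 and 5134 to 13717). The cortical epithelial sum overlapped in each strain, and the medullary sum was higher in KO without overlap in NOD, at 61618 to 64701 in WT and 66009 to 71435 in KO. The part of any of these cells in the values of the germline genes was not tested.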

How the data were processed

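Per the labels' protocols, RNA was isolated with Trizol, amplified in a pair of rounds and labelled with biotin. Such amplification can under-represent sequence far from the poly(A) tail. The deposited intensity values are linear, 1 per probe set and array, and were made with RMA per the submitters' processing notes, with settings not given in the sources used here. They run from 6.55 to 18395, and their number of 20 arrays limits the precision. Of 45101 probe sets, 64 controls were left out. Log2 intensities of the 6 groups were fitted with limma 3.58.1 in R 4.3.3 (lmFit, eBayes, 14 residual degrees of freedom), and p-values were adjusted over 45037 probe sets by the Benjamini-Hochberg method with a threshold of 0.05. Symbols came from the platform annotation, and gene order and promoter windows from RefSeq (GRCm38.p6), where all 10 genes matched. Of the probe sets, 34945 had exactly 1 symbol.

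The members and gene lists were chosen with earlier results of these data known. Genes named are all members, up to 4 passing genes per list with the largest effect, the 3 most alike genes for each member that fell at least 2-fold, and the measured neighbours. Mice with the same number were checked for shared deviations from group means. The r was 0.46 to 0.66 in BALB and 0.31 to 0.67 in NOD. In B6 it was 0.78, 0.72 and -0.13 for mice 1, 2 and 3. On this check and not on the labels, numbers were taken as pairs in BALB and NOD. The fit with the replicate block nevertheless paired the mice of every strain, so its averaged contrast includes B6 pairs. Alternatives covered scaling, an offset of 50, blocks, array weights, other variance models, the omission of dim probe sets, a Gapdh covariate, arrays left out, 2 alike B6 KO arrays averaged, and each mouse left out. The code was tested on simulated data.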

Additional observations from a re-analysis of the deposited data

Results flagged for a closer look

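Among BALB groups of 4 mice, 5 single values stood apart from the other 3 by Dixon's criterion, out of 120 such groups checked, a criterion that chance meets in about 1 group in 20. Of members, Sycp1 read 3.86 in BALB KO 1 (others 4.06 to 4.08) and Tnp1 1415924_at read 4.33 in BALB WT 2 (others 3.997 to 4.02). Aire read 9.31 in BALB WT 4 (others 10.48 to 10.71), the mouse that was also lowest of its group for Ddx4 and Mael, and Ly75 read 9.44 in the same mouse (others 8.70 to 8.80). Zbtb46 read 7.41 in BALB WT 2 (others 7.11 to 7.15).

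The Aire effect on Enpep, a cortical epithelial marker, differed between strains by the limma F test (adjusted p = 0.0126), at -2.95 in B6, -1.36 in BALB and -1.48 in NOD.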

How the results depend on the processing

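Beside the leave-one-out fits, 908 of 953 alternative values kept their direction and side of the threshold, 23 lost the threshold, 19 reached it and 3 reversed. With each mouse left out in turn, 1708 of 1800 did so, 70 lost it, 10 reached it and 12 reversed. Leaving out dim probe sets kept 2 member probe sets in the test and gave 1 call in the averaged contrast, 1 in B6, 1 in BALB, 1 in NOD and 1 for WT strain differences, with 11 calls over the 4 germline lists in place of 26. With the offset of 50, NOD had 3 calls. Array weights gave 2 strain differences of the Aire effect and 6 among KO mice, and the run block and the Gapdh covariate gave 1 strain difference of the effect each. For these F tests the share of all probe sets under the same setting is not given here, so the counts are no result about the members. The replicate block gave 6 calls in B6 (21.5% of all probe sets), where the check did not bear out the pair of mice 3, and 6 in BALB (17.3%). Leaving out 1 mouse gave 7 to 8 calls averaged, 3 to 4 in B6, 3 to 4 in BALB, 3 to 5 in NOD, 0 strain differences of the effect, 2 to 3 in WT, 0 to 1 in KO and 22 to 28 over the lists. Over all probe sets the averaged calls numbered 9277, against 16715 with array weights, 16664 with the replicate block and 5455 without dim probe sets. The averaged effect on Prm1 1415955_x_at changed sign to 0.030 with quantile normalization, 0.0033 with median centring and 0.013 with the run block, and lay between -0.032 and 0.032 with 1 mouse left out. The BALB effect on Dazl 1419542_at lay between -0.21 and 0.049 with 1 mouse left out, the latter without BALB WT 1. The causes of these changes were not tested. Members near the floor (Mael, Sycp1, Sycp3, Tnp1 and 2 Prm1 probe sets) leave little room for a fall.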
